A study of Homo sapiens with 4 samples.

Results

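The TCA cycle and the pyruvate dehydrogenase step that feeds it were examined as 33 genes chosen by symbol. No measured value was used in the choice, although earlier results of these data were known. Of the 33 genes, 32 were among the 16376 genes of the deposited table, and PDK4 was not analysed here. They were ordered by role as 20 cycle enzymes, 4 pyruvate dehydrogenase subunits, 5 kinases and phosphatases that act on that complex, and 3 genes of pyruvate entry. The RNA came from LASCPC-01 cells, a human neuroendocrine prostate cancer (NEPC) line built with NMYC and an active form of AKT1 and labelled WT for genotype. Cells of 2 libraries were given PBS as the control and cells of 2 libraries were given fluoxetine, an antidepressant that blocks serotonin reuptake. All 4 were labelled day 3 with no dose, whereas the study's text gives a dose and a shorter exposure, and both fluoxetine samples have the letters PP in their titles. The line is 1 model with no second clone, nothing in the labels says that the libraries came from separate cultures, and p-values therefore measure only the spread between these libraries, which may be technical. In RNA from whole cultures, fewer cells of a type and less RNA per cell cannot be told apart.

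Pyruvate made by glycolysis enters the mitochondrion through a carrier of MPC1 and MPC2. There the pyruvate dehydrogenase complex turns it into acetyl-CoA, which citrate synthase joins to oxaloacetate to open the cycle. Pyruvate dehydrogenase kinases (PDK) phosphorylate the E1 alpha subunit and switch the complex off, and the phosphatases PDP1 and PDP2 switch it on again. PDK1 and LDHA are well known targets of the hypoxia-inducible factors, which turn pyruvate away from the mitochondrion and towards lactate.

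Values were FPKM, in which fragments are divided by gene length and by library depth. A comparison of levels between genes therefore rests on the length used for each gene. Whole reads were recovered from the FPKM for 16076 of the 16080 genes above 0, at depths of 32873603 to 34831389 reads. The 32 genes held between 364 reads (PDP1) and 27322 reads (MDH2) in a library. Among neuroendocrine markers, NCAM1, INSM1, MYCN and ENO2 were above 2 FPKM in every library, SYP was below 0.63 FPKM and CHGA below 0.089 FPKM. Of these, NCAM1, MYCN and ENO2 were lower in each fluoxetine library than in either PBS library, as were 24.8% of all genes tested. The groups overlapped for INSM1, SYP and CHGA. The part of these markers in the results was not tested. Of 8 fibroblast and leukocyte markers, COL1A1 and CD68 were between 1.83 and 3.97 FPKM and the other 6 were at or below 0.212 FPKM in every library.

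All 32 genes passed the filter of a mean FPKM of at least 0.1, and their means spanned 2.80 to 344.8 FPKM. MDH2, the mitochondrial malate dehydrogenase, was highest, followed by IDH2 at a mean of 234.5 FPKM and by CS (citrate synthase) at 165.7 FPKM. The lowest MDH2 library was above the highest IDH2 library, and the lowest IDH2 library was above the highest CS library, whereas CS and SDHB, at a mean of 159.9 FPKM, overlapped. A long plateau followed, in which the 12 genes from IDH3B to DLAT each overlapped the gene above them, at means between 65.1 and 45.9 FPKM. The regulators lay, with PC, at the bottom of the order. PDK1 had a mean of 10.6 FPKM, PDP2 of 9.12, PDK2 of 7.94, PDK3 of 3.02 and PDP1 of 2.80, against 27.9 to 63.1 FPKM for the 4 subunits of the complex they act on.

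Paralogues that do the same step in different compartments or with different cofactors were expressed at unequal levels, and these ratios can be read within a library. The mitochondrial NADP enzyme IDH2 was 5.0 to 5.2 times the level of its cytosolic counterpart IDH1 in all 4 libraries. The ATP-forming succinyl-CoA ligase subunit SUCLA2 was 1.76 to 2.25 times the GTP-forming SUCLG2. The second oxoglutarate dehydrogenase gene, OGDHL, was at 30.5 to 32.2 FPKM, and OGDH was 1.86 to 1.97 times higher.

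Most of the cycle showed little difference between fluoxetine and PBS. With limma on log2(FPKM + 0.1) over 12663 genes and Benjamini-Hochberg adjustment, an adjusted p under 0.05 was reached by 0 of the 32 genes and by 0.237% of all genes tested. The unadjusted p was under 0.05 for 3 of the 32 and for 8.51% of all genes. PDK1 was the 1 lower (4.79% of all genes) and SDHD and MDH1 were the 2 higher (3.73% of all genes). Limma voom on the recovered reads was run as an alternative that was not planned. With it, PDK1 alone of the 32 passed after adjustment (0.384% of all genes), and 4 of the 32 (10.8% of all genes) passed before it. Over the 32 genes the median log2 fold change was -0.0011, with 16 higher and 16 lower, beside -0.021 over all genes tested. For 25 of the 32, the 95% interval of the fold change lay within 1.25-fold in either direction, as for 46.4% of all genes. Among genes with a mean of at least 10 FPKM the counts were 23 of 27, beside 78.6% of all such genes.

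Both fluoxetine libraries were above both PBS libraries for 5 of the 32 genes (16.7% of all genes) and below both for 7 (24.8% of all genes). The 5 were SDHD, MDH1, FH, PDHB and MPC1. The 7 were CS, OGDH, SUCLG2, PDHX, PDK1, PDK3 and PDP2. Together these were 12 of 32, where 41.6% of all genes had groups that did not overlap, so non-overlap was no more frequent here than elsewhere. For a single value, a two-sided exact permutation test in this design cannot go below p = 0.333.

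**Figure D1:**
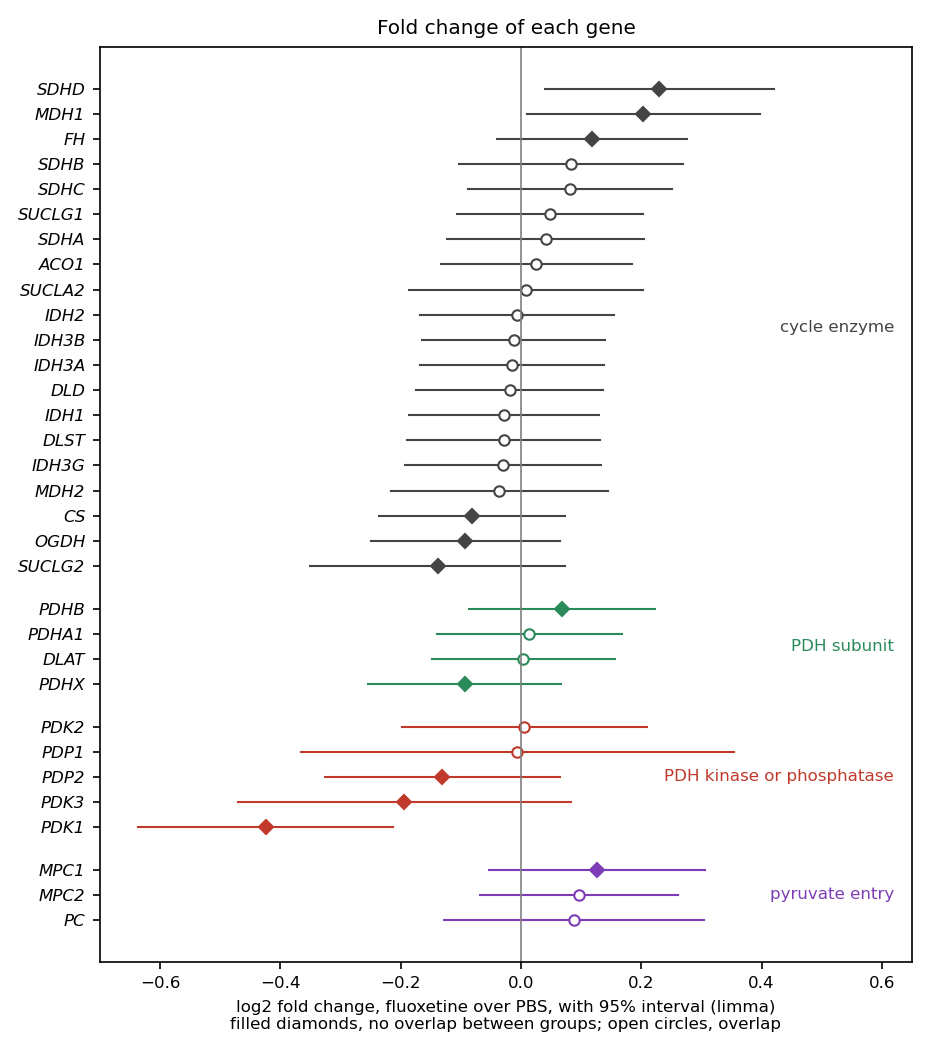
log2 fold change of each gene (fluoxetine over PBS) with its 95% interval from limma, grouped by role. Filled diamonds mark the 12 genes whose groups did not overlap. Most intervals span 0, and PDK1, at -0.42, lies farthest from it.

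The kinases and phosphatases held the largest difference. PDK1 spans 172555373 to 172608669 on chromosome 2 (GRCh38, GENCODE 29). It had 12.9 and 11.4 FPKM with PBS and 9.50 and 8.56 FPKM with fluoxetine. The higher fluoxetine library was thus below the lower PBS library. The means were 12.2 ± 1.08 FPKM with PBS and 9.03 ± 0.661 FPKM with fluoxetine (SD, n = 2 each), a ratio of 0.743. The log2 fold change was -0.42 (SE 0.097, 95% interval -0.64 to -0.21), with an adjusted p of 0.187 in limma. On the recovered reads, 2272 and 2118 with PBS and 1768 and 1595 with fluoxetine, limma voom gave -0.43 with an adjusted p of 0.00675. The call thus differed between these fits, with the fold change nearly the same.

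PDK2, the most widely expressed kinase of the family, had 7.84 and 8.002 FPKM with PBS and 7.68 and 8.23 FPKM with fluoxetine. These groups overlapped, and the log2 fold change was 0.0054 (95% interval -0.20 to 0.21). PDK3, which spans 24465221 to 24541862 on chromosome X, had 3.05 and 3.40 FPKM with PBS and 2.77 and 2.84 FPKM with fluoxetine. Its groups did not overlap, but its log2 fold change was -0.19 (SE 0.13, limma adjusted p = 0.648).

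As a share of the summed FPKM of PDK1, PDK2 and PDK3, PDK1 made up 54.3% and 49.97% in the PBS libraries and 47.6% and 43.6% in the fluoxetine libraries. PDK2 made up 32.9% and 35.1% with PBS and 38.5% and 41.9% with fluoxetine. PDK1 was thus 1.65 and 1.42 times PDK2 with PBS and 1.24 and 1.04 times PDK2 with fluoxetine, with no overlap (exact permutation test, p = 0.333, the smallest this design allows). PDK3 kept a share of 12.8% to 14.9% in which the groups overlapped. These shares rest on the gene lengths used. PDK3 held 1261 to 1547 recovered reads a library at an implied 13074 bases, and PDK2 held 979 to 1089 at 3797 bases. The summed kinase level was 23.8 and 22.8 FPKM with PBS and 19.9 and 19.6 FPKM with fluoxetine. Per FPKM of PDHA1, the E1 alpha subunit that the kinases phosphorylate, the summed kinase level was 0.398 and 0.368 with PBS and 0.318 and 0.326 with fluoxetine.

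The phosphatases, which oppose the kinases, differed in their precision. PDP1 had 2.75 and 2.82 FPKM with PBS and 2.30 and 3.34 FPKM with fluoxetine. The fluoxetine libraries lay on both sides of the PBS libraries, and the log2 fold change of -0.0062 had the widest interval of the 32 genes, -0.37 to 0.35. PDP2 had 9.45 and 9.62 FPKM with PBS and 8.43 and 8.98 FPKM with fluoxetine (log2 fold change -0.13, SE 0.090, limma adjusted p = 0.666). The ratio of summed kinases to summed phosphatases was 1.95 and 1.83 with PBS and 1.86 and 1.59 with fluoxetine, and the groups overlapped.

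Because PDK1 is a known target of the hypoxia-inducible factors, the 250 bases before each RefSeq transcript start were searched on both strands for ACGTG and GCGTG, the core of their binding motif. Of the 2 listed starts of PDK1, the one at 172556090 held 2 matches to ACGTG and the one at 172555373 held none. Of the 3 starts of PDK2, 1 held matches, in which the palindrome CACGTG was counted on both strands, and the single start of PDK3 held 1 match to each core. Over all 35116 listed windows, 18.5% held ACGTG and 43.2% held either core, beside 10 and 22 of the 41 windows listed for 30 of the 33 genes (PDK4 among them, with OGDH, SDHC and PDP1 not searched). A match is only a match of letters. The stretches around ACGTG are shown for the kinase whose level differed most and for the paralogues to which it was compared, 5′ to 3′ on the plus strand of GRCh38.p14, with the matches in capitals (the reverse strand reads CACGT).
PDK1, chr2:172556060-172556089: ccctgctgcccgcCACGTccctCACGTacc
PDK2, chr17:50095210-50095239: cccgggggaagcCACGTGccggggcggaag
PDK3, chrX:24465212-24465241: tcgcgcgccgcgtACGTGcagcaaccgact

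The PDK1 stretch ends at the base before the RefSeq start at 172556090 and lies in the first exon of a longer GENCODE 29 transcript. The matches in PDK1 lie 17 and 8 bases before the start, that in PDK3 lies 61 bases before it, and those in PDK2 lie 129 and 128 bases before it. Each of the 3 kinases thus held ACGTG in at least 1 of its windows. The 18.5% given for all listed windows is a share of windows, and the share of genes with at least 1 such window was not counted. Whether these matches have a part in the kinase levels was not tested.

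The 4 subunits of the pyruvate dehydrogenase complex itself had log2 fold changes between -0.094 and 0.068 with a median of 0.0089. For all 4 the 95% interval lay within 1.25-fold, beside 78.6% of all genes with a mean of at least 10 FPKM, as all 4 had. PDHA1 had 59.8 and 62.0 FPKM with PBS and 62.8 and 60.2 FPKM with fluoxetine. DLAT, the E2 acetyltransferase, had 45.5 and 46.2 FPKM with PBS and 45.4 and 46.5 FPKM with fluoxetine. Both pairs of groups overlapped.

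PDHX, which anchors the E3 enzyme to the core, had 28.3 and 29.3 FPKM with PBS and 26.4 and 27.5 FPKM with fluoxetine (log2 fold change -0.094, SE 0.074, limma adjusted p = 0.706). PDHB, the E1 beta subunit, had 62.7 and 60.5 FPKM with PBS and 66.1 and 63.1 FPKM with fluoxetine (log2 fold change 0.068, SE 0.071, limma adjusted p = 0.781). Neither pair of groups overlapped, and neither difference passed the test. DLD, the E3 enzyme shared with the oxoglutarate dehydrogenase complex, had 39.3 to 41.1 FPKM over the 4 libraries.

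The genes of pyruvate entry were all higher in fluoxetine, with a median log2 fold change of 0.096, and 0 of 3 passed limma or voom, before or after adjustment. MPC1 had 14.3 and 15.3 FPKM with PBS and 16.6 and 15.7 FPKM with fluoxetine (log2 fold change 0.13, SE 0.082, limma adjusted p = 0.648). Its fluoxetine libraries were both above its PBS libraries. MPC2 had 61.1 and 56.4 FPKM with PBS and 65.02 and 60.6 FPKM with fluoxetine (log2 fold change 0.096, SE 0.076, limma adjusted p = 0.706), and its groups overlapped. MPC2 was 3.69 to 4.27 times MPC1, although both are needed for the carrier. PC, pyruvate carboxylase, which makes oxaloacetate directly from pyruvate, had 6.56 to 7.55 FPKM and overlapping groups.

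Among the 20 cycle enzymes the median log2 fold change was -0.0093, with 9 higher and 11 lower and values between -0.14 and 0.23. For 17 of the 20 the 95% interval lay within 1.25-fold, beside 78.6% of all genes with a mean of at least 10 FPKM, as all 20 had. The early steps differed by little. CS had 171.9 and 168.9 FPKM with PBS and 161.4 and 160.6 FPKM with fluoxetine, with no overlap (log2 fold change -0.082, SE 0.071, limma adjusted p = 0.732). The 5 isocitrate dehydrogenase genes, IDH1, IDH2, IDH3A, IDH3B and IDH3G, had log2 fold changes between -0.030 and -0.0064, and the groups overlapped for all 5.

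The oxoglutarate dehydrogenase genes OGDH, DLST and DLD had log2 fold changes of -0.092, -0.029 and -0.019. OGDH, the E1 enzyme, was the 1 of these without overlap, at 60.6 and 63.6 FPKM with PBS and 56.6 and 59.9 FPKM with fluoxetine. SUCLG2 had 12.3 and 12.5 FPKM with PBS and 12.3 and 10.3 FPKM with fluoxetine. The first fluoxetine library was only just below the PBS libraries, and without the second the log2 fold change of -0.14 came to -0.015.

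Succinate dehydrogenase, which is also complex II of the respiratory chain, had all 4 subunits higher in fluoxetine, with log2 fold changes of 0.041 for SDHA, 0.083 for SDHB, 0.081 for SDHC and 0.23 for SDHD. After rescaling to TPM the value of SDHA was -0.0069, and with quantile normalization it was -0.011. SDHD, a membrane anchor of the complex on chromosome 11 from 112086773 to 112120013, had 48.4 and 41.3 FPKM with PBS and 54.7 and 50.3 FPKM with fluoxetine. The groups did not overlap. The means were 44.9 ± 5.04 and 52.5 ± 3.10 FPKM (SD, n = 2 each), and the log2 fold change was 0.23 (SE 0.087, limma adjusted p = 0.532).

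SDHB had 167.9 and 143.2 FPKM with PBS and 166.3 and 162.4 FPKM with fluoxetine, so only the second PBS library stood below the rest. Without that library the log2 fold change of SDHB was -0.031, that of SDHA -0.031, that of SDHC 0.016 and that of SDHD 0.12. The count of 4 higher subunits thus rested on that library, and 2 were higher without it. With the length trend removed, SDHC came to 0.012. SDHA shares sequence with pseudogene copies, and how the authors' counting treated reads shared with them is not given in the sources used here, so its level is uncertain. FH, fumarase, had 59.9 and 56.0 FPKM with PBS and 63.9 and 61.9 FPKM with fluoxetine (log2 fold change 0.12, SE 0.072, limma adjusted p = 0.627).

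MDH1, the cytosolic malate dehydrogenase of the malate-aspartate shuttle, lies on chromosome 2 from 63588609 to 63607197. It had 127.4 and 107.2 FPKM with PBS and 139.5 and 129.9 FPKM with fluoxetine. The groups did not overlap, but the first PBS library and the second fluoxetine library were close. The means were 117.3 ± 14.3 and 134.7 ± 6.80 FPKM (SD, n = 2 each), and the log2 fold change was 0.20 (SE 0.089, limma adjusted p = 0.557). Without the second PBS library it was 0.079, and without the first it was 0.33. MDH2 had 335.8 and 362.3 FPKM with PBS and 354.3 and 326.8 FPKM with fluoxetine, with overlap. The ratio of MDH1 to MDH2 was 0.379 and 0.296 with PBS and 0.394 and 0.398 with fluoxetine.

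Gene length was related to FPKM differently in the 4 libraries, and the genes described here range from 907 to 13074 bases as implied by the recovered reads. An implied length is the smallest that gives whole reads in all 4 libraries and can be a fraction of the true one, as may hold for ACO1, the shortest. Across 12662 genes, log2 fold changes had a correlation of -0.199 with log2 length. Centred on each gene's mean, log2 FPKM had a correlation of -0.284 with length in the first fluoxetine library and 0.189 in the second PBS library. Across the 32 genes, which share these libraries, the correlation was -0.552. The 10 genes shorter than 2000 bases had a median log2 fold change of 0.074 with 8 higher, beside 0.064 for all such genes, and the 22 longer genes had a median of -0.017 with 8 higher, beside -0.039 for all such genes.

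With the length trend removed from each library, an alternative chosen with results known, the correlation across the 32 genes was -0.153. In that fit 0 of the 32 passed limma after adjustment (0.166% of all genes) and 2, PDK1 and SDHD, before it (7.91% of all genes). PDK1 kept a log2 fold change of -0.38 (limma adjusted p = 0.457), SDHD came to 0.17 and MDH1 to 0.15. PDK3, the longest of the 32 genes at an implied 13074 bases, came to -0.067 and PDP2 to -0.061, SDHB to -0.0056 and FH to 0.040. MPC1 and PC came to 0.15 each.

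Of 38 neighbouring pathway genes, 20 were higher and 18 lower in fluoxetine, with a median log2 fold change of 0.015. After adjustment 0 passed with limma and 0 with voom, and before it 1 of 38 passed with each, where 8.51% of all genes passed with limma and 10.8% with voom. That gene was LDHA, the lactate dehydrogenase subunit that favours lactate formation, on chromosome 11 from 18394388 to 18408425. It had 482.2 and 461.7 FPKM with PBS and 420.7 and 401.6 FPKM with fluoxetine. The groups did not overlap, and the log2 fold change was -0.20 (SE 0.081, limma adjusted p = 0.541), or -0.22 with the length trend removed.

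Its partner LDHB, named after its values were seen, had 488.8 and 431.8 FPKM with PBS and 531.4 and 486.6 FPKM with fluoxetine, with overlap. The log2 fold change of LDHB was 0.15, or 0.10 with the length trend removed. The ratio of LDHA to LDHB was 0.986 and 1.07 with PBS and 0.792 and 0.825 with fluoxetine, with no overlap (exact permutation test, p = 0.333, the smallest this design allows). In LASCPC-01 cells the study reported no significant change of glucose consumption or lactate production with fluoxetine.

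The 2 widest intervals among the other neighbours belonged to PCK1 and GLUD2, both at low levels. PCK1, the cytosolic enzyme that turns oxaloacetate into phosphoenolpyruvate, had 0.194 and 0.0649 FPKM with PBS and 0.184 and 0.0216 FPKM with fluoxetine (log2 fold change -0.25, 95% interval -1.38 to 0.88). GLUD2, a glutamate dehydrogenase, had a log2 fold change of 0.19 (95% interval -0.68 to 1.06), and LIPT1, a lipoyltransferase with a narrower interval, had 0.17 (95% interval -0.20 to 0.54). These genes were named after their values were seen, and the groups overlapped for each of the 3. Of the 6 mitochondrial carriers for citrate, dicarboxylates, oxoglutarate, aspartate and glutamate, 5 were higher, with log2 fold changes between -0.0019 and 0.10. The 4 succinate dehydrogenase assembly factors lay between -0.026 and 0.19, and the groups overlapped for all 4. The 9 related dehydrogenase genes had a median of -0.042 with 7 lower, and the 5 lipoylation and cofactor genes a median of 0.082 with 3 higher. The 4 glutamine entry genes had a median of 0.086 with 3 higher, and the 8 genes of malate, oxaloacetate and citrate use a median of -0.016 with 5 lower.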

How the data were processed

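RNA of 2 PBS and 2 fluoxetine libraries was analysed, mapped by their treatment labels. The authors deposited 1 FPKM per gene and library, and the submitters' processing notes name fastp, HISAT2, HTSeq and GRCh38, with no versions. The annotation is not given in the sources used here. The study's own test works on counts, so limma 3.58.1 in R 4.3.3 (eBayes with a variance trend) was used on log2(FPKM + 0.1) where the mean FPKM was 0.1 or more. On this scale a fold change understates that of low genes.

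Depth was found as the value that the largest number of genes gave at GENCODE 29 exon lengths. This was 68 to 73 genes a library, against 23 to 29 for the next value. For each gene, the smallest length up to 40000 bases that gave reads within 0.003 of whole numbers in all 4 libraries was taken, so true reads can be multiples of these. Between replicates, the chi-square of the reads per degree of freedom was 9.55 for PBS and 11.6 for fluoxetine, above sampling noise. Both steps were tested on simulated data. Tables and figures were made in Python 3.11.15. RefSeq promoter windows came from GRCh38.p14.

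The genes, lists and tests were chosen with earlier results of these data known. The rule was to give genes in full for an unadjusted p under 0.05 or as the 2 largest log2 fold changes of a role. Neighbouring genes were to be named by an unadjusted p under 0.05 at a mean FPKM of at least 1. CS, FH, PDP2 and some others were also given with their values outside this rule. Alternatives were other pseudocounts, filters, scalings and moderation, a replicate block, each library left out, removal of the length trend (lowess, span 0.3) and voom on genes of at least 10 reads. Some marker and pathway genes are not reported here.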

Additional observations from a re-analysis of the deposited data

How the results depend on the processing

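Over 16 alternatives, PDK1 stayed lower in fluoxetine in all 16, with log2 fold changes between -0.51 and -0.33 and adjusted p between 0.00675 and 0.665. The other filters, the other moderation settings and the replicate block leave the fold change of a gene as it was. They could therefore not change the sign of PDK1 or of any other gene. PDK1 passed 0.05 in 2 of the alternatives, voom on the recovered reads, which was not planned, and the replicate block. The deviations from the group means had a correlation of 0.0351 between libraries of the same number. With 2 libraries a group, this cannot show whether they shared a culture day or batch, which the labels do not give. With the replicate block in limma, PDK1 had an adjusted p of 0.0461. The count of genes passing over all genes was 30, against 64 with the replicate block, 54 with voom, 16 with quantile normalization, 0 without the filter and 0 without the variance trend, and 2 to 12 with 1 library left out. Of the 32 genes the count was 0, against 1 with the replicate block and 1 with voom, and 0 with any library left out.

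The median of the cycle enzymes moved to -0.057 in TPM. That of the pyruvate dehydrogenase subunits was -0.039 in TPM, -0.021 with quantile normalization and 0.035 with median centring, and -0.0090 to 0.027 with 1 library left out. That of the kinases and phosphatases was -0.061 with the length trend removed and -0.21 to -0.086 with 1 library left out. Left out in turn, libraries gave -0.043 to 0.024 for the cycle enzymes and 0.038 to 0.15 for pyruvate entry.

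Of the 32 genes and LDHA, 16 kept their sign under every alternative run, and the other 17, which lay between -0.036 and 0.083 as reported, did not. In TPM, SDHA came to -0.0069, ACO1 to -0.022, PDHA1 to -0.034, SUCLA2 to -0.039, PDK2 to -0.042 and DLAT to -0.044. With quantile normalization, SUCLA2 came to -0.0025, DLAT to -0.0060, SDHA to -0.011, PDHA1 to -0.035 and PDP1 to 0.055. With median centring, DLD came to 0.0078, IDH3A to 0.011, IDH3B to 0.014, IDH2 to 0.020 and PDP1 to 0.020. With the length trend removed, SDHB came to -0.0056, SUCLG1 to -0.024, SUCLA2 to -0.029, ACO1 to -0.071 and PDP1 to 0.025. With 1 library left out, the ranges that crossed 0 were -0.0027 to 0.054 for ACO1, -0.081 to 0.025 for IDH1, -0.035 to 0.023 for IDH2, -0.047 to 0.017 for IDH3A, -0.045 to 0.021 for IDH3B, -0.10 to 0.042 for IDH3G, -0.086 to 0.029 for DLST, -0.051 to 0.014 for DLD, -0.11 to 0.12 for SUCLA2, -0.031 to 0.11 for SDHA, -0.031 to 0.20 for SDHB, -0.094 to 0.022 for MDH2, -0.017 to 0.045 for PDHA1, -0.013 to 0.022 for DLAT, -0.044 to 0.055 for PDK2 and -0.27 to 0.25 for PDP1. A library left out leaves a group of 1, which is then assumed to vary like the other group. The cause of these shifts was not tested. The fewest reads of the 32 genes were those of PDP1, at 364 to 529 a library, and the part of depth in its wide interval was not tested.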
